A study of Mus musculus with 7 samples.

Results

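The genes described here are 51 genes of DNA replication and repair after silencing of Trp63 in primary keratinocytes of the mouse, the main cell type of the epidermis. They were chosen by name, 40 for replication and 11 for repair, with earlier results of these data known. Each was read at the probe set with the highest mean intensity among those annotated with that gene symbol alone. Of the 51 genes, 49 had such a probe set, out of 12393 genes measured in all, and Gins2 and Fancd2 were not analysed here. RNA levels were measured on Affymetrix arrays, 1 array per sample, in cells transfected transiently with small interfering RNA (siRNA) and collected after 48 h. There were 5 arrays of cells given Trp63-specific siRNA (silenced replicates 1, 2, 3, 4 and 7) and 2 arrays of cells given a non-specific siRNA (control replicates 5 and 6). The labels give no mouse strain, age or genotype and no untransfected cells, so all arrays share the transfection. Nor is it stated that replicates came from separate cultures, and the p-values therefore reflect the spread among these 7 arrays, which may be only technical.

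DNA replication starts at origins that are licensed in G1, when the origin recognition complex, Cdc6 and Cdt1 load the ring-shaped MCM helicase onto DNA. In S phase the helicase is activated by Cdc45 and the GINS complex, primase and polymerase alpha lay down primers, and polymerases delta and epsilon copy the strands with the sliding clamp PCNA. Repair pathways share many of these enzymes, and most genes of both groups are induced at the G1 to S transition by E2F transcription factors. In the epidermis, dividing cells are found in the basal layer, where Trp63, the gene of the p53-family transcription factor p63, is expressed.

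Trp63 itself fell on all silenced arrays, to 32.1% of the control intensity at its probe set of highest mean (503 ± 31.1, SD, n = 5, against 1565 ± 167, SD, n = 2; limma adjusted p = 1.0e-05). Its other, dimmer probe sets fell less, to 69.4% and 66.5% of the control intensity (log2 differences -0.49 and -0.54, limma adjusted p = 0.00228 and 3.4e-04). Array medians lay between 207 and 214. The labelled cell type was matched by high keratin markers, with Krt14 at 14825 ± 302 (SD, n = 5) and 17063 ± 145 (SD, n = 2), and Krt5 at 11602 ± 631 and 14460 ± 231. The summed intensity of the 10 keratinocyte markers was 52055 to 57952 with Trp63 siRNA and 72810 to 74260 in the controls, and 9 of the 10 fell. Melanocyte RNA was present on every array. The summed intensity of 9 melanocyte markers was 11481 and 12153 in silenced replicates 1 and 2, between 6997 and 7382 in silenced replicates 3, 4 and 7, 10230 in control replicate 5 and 6839 in control replicate 6. None of these markers passed the test between groups. The lowest mean among them was 112, and the dimmest probe set on each array read 58.5 to 60.7. Sums of 15 fibroblast markers (2608 to 3050 against 2227 to 2628) and 14 immune markers (2213 to 2381 against 2305 to 2352) were below those of the keratinocyte and melanocyte markers. Of these, 2 fibroblast markers rose, among them the brightest, Col5a2 (321 ± 39.4, SD, n = 5, against 178 ± 2.17, SD, n = 2; 0.79, adjusted p = 0.00145), and 1 immune marker rose and 1 fell. Their part in the results was not tested. RNA spiked in before labelling (the bacterial dap, lys, phe and thr transcripts) read higher on silenced replicates 2, 3 and 7, with mean log2 levels of 8.63, 8.66 and 8.81, than on the other 4 arrays (8.11 to 8.30). In RNA from whole cultures, fewer cells in S phase and less RNA per cell cannot be told apart.

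Promoter sequences are shown first because E2F control is the feature that most of these genes are known to share. RefSeq promoters (GRCm38.p6, from 250 bases before to 50 after the start) were found for 42 of the 49 measured members. Each was searched on both strands for 4 E2F words, TTTCCCGC, TTTCGCGC, TTTGCCGC and TTTGGCGC. At least 1 word was present for 17 of the 42 members (40.5%), compared with 402 of 9887 genes on the array that had a promoter (4.07%) and 704 of 27025 genes in the promoter table (2.6%). Those 17 were Orc1, Cdc6, Cdt1, Mcm3, Mcm5, Mcm6, Mcm7, Pola1, Pold1, Pole2, Rfc3, Lig1, Uhrf1, Hells, Brca2, Bard1 and Msh6. The 250 bases before the start are printed for Pola1, the member with the largest decrease, for Mcm6, which holds 3 words and whose groups overlapped, for Hells, which was far lower on 1 silenced array than on the others, and for Xrcc5, a repair gene that fell and holds no word. Sequences run 5′ to 3′ on the gene's strand, and capitals mark the E2F words, of which the first pair in Mcm6 overlap.
Pola1 (chrX:93632156-93632405, minus strand): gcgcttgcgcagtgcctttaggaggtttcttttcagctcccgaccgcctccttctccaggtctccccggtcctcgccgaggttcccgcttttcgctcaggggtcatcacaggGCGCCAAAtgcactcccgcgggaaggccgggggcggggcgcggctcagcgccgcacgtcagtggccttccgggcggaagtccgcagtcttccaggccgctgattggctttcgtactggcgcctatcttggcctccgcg
Mcm6 (chr1:128359706-128359955, minus strand): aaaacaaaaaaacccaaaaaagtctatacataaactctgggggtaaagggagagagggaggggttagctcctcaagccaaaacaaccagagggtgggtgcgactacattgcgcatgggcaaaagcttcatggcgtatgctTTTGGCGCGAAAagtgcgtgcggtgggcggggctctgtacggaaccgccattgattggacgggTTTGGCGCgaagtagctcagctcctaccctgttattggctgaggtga
Hells (chr19:38930740-38930989, plus strand): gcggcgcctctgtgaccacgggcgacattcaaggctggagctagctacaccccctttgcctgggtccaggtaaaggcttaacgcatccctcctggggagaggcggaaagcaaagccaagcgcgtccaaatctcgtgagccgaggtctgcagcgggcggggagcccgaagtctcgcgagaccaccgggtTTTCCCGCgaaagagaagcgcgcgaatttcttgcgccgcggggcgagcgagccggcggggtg
Xrcc5 (chr1:72307171-72307420, plus strand): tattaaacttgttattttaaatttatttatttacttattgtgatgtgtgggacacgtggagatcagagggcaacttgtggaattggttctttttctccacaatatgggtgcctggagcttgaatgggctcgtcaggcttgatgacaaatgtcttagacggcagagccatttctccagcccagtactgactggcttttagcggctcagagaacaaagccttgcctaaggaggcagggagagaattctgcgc
In Pola1 the word TTTGGCGC lies on the opposite strand and reads as its reverse complement. Shares of other promoter elements were closer to those of all array genes. CCAAT, searched on both strands, was found in 54.8% of members and 42.3% of array genes, GGGCGG in 69.0% and 61.0%, and TTTGAA, the cell cycle homology element of G2 genes, in 11.9% and 15.4%. A match describes letters in the window and does not show binding. Among members that fell with Trp63 siRNA, 2 of 9 with a promoter held an E2F word (Pola1 and Pole2), and among members that did not pass the test, 15 of 33 did.

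Silencing of Trp63 was accompanied by small decreases in a minority of the replication and repair genes. Of 49 measured members, 10 fell, none rose and 39 did not pass the test. The 10 were Pola1, Fen1, Rfc5, Xrcc5, Prim1, Gins1, Mcm10, Pole2, Blm and Ung, and their decreases ran from 1.17-fold (Ung) to 1.58-fold (Pola1). Over all 12393 genes, 8.57% were called lower and 8.03% higher by the same test, against 20.4% and none of the members. Because the members were chosen with earlier results of these data known, that choice may have shaped this contrast. No member was higher at an unadjusted p under 0.05 in limma, and 20 were lower at that level. The share of all genes at that level was not counted, here or for the other lists below. The median log2 difference of the members was -0.17, beside -0.04 over all genes. Signs were mostly negative, with 45 members below 0 and 4 above it (Cdt1, Pcna, E2f1 and Cdc6), and 42 and 37 were below 0 with median centring and with array weights. Among all 12393 genes, 7887 were below 0. The ratio of signal at the 5′ to the 3′ end of control transcripts, a sign of RNA integrity, also separated the groups, at 0.803 to 0.879 against 0.738 and 0.768 for actin and 1.07 to 1.11 against 1.02 on both controls for Gapdh. Its part in the decreases was not tested.

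The 10 calls rest on few arrays. Without control replicate 6 only Pola1 passed, while 2.78% of all genes were called lower. Without control replicate 5 only Pola1 and Fen1 did (4.22% of all genes), and without silenced replicate 3 there were 6 (5.84%). The log2 differences of the 10 ran from -0.65 to -0.24 without control replicate 6 and from -0.68 to -0.21 without control replicate 5, beside -0.66 to -0.23 on all arrays. All 5 silenced values lay below both controls for 24 of the 49 members (49.0%), a pattern found for 24.0% of all genes, and above both controls for none, against 14.3% of all genes. Of the 24, 14 did not pass the test. In data simulated for this design with independent noise, 33 of 70 changes of 0.3 (log2) and 55 of 70 changes of 0.5 were called. A member that did not pass is therefore not shown to be unchanged.

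**Figure D1:**
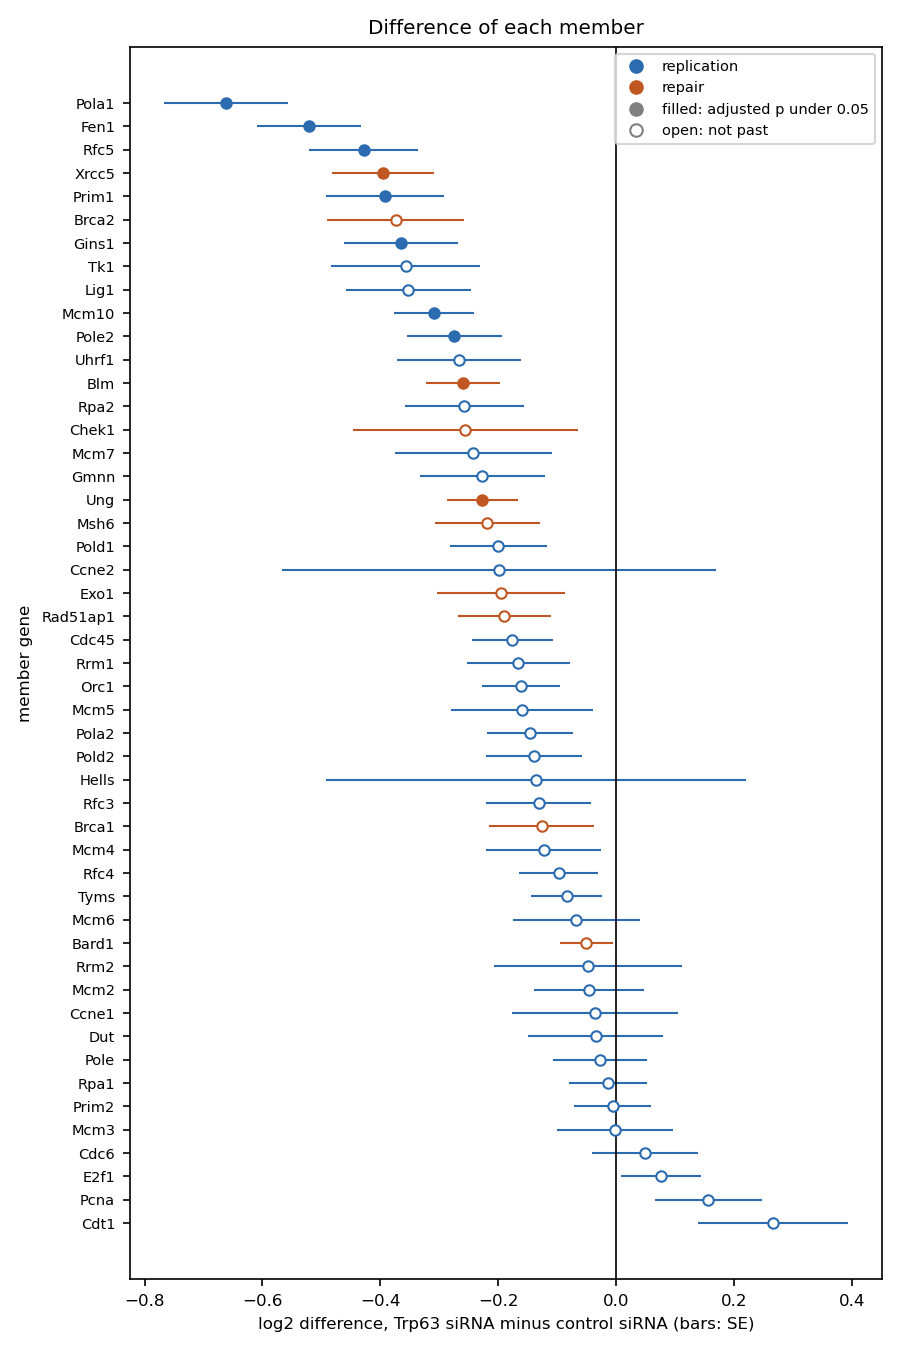
The log2 difference between Trp63 siRNA and control siRNA is plotted for each of the 49 measured members (x axis, log2 units, bars show the SE), in order of size, with replication genes in blue and repair genes in orange. Filled points mark the 10 members that passed an adjusted p of 0.05, all on the negative side, from Ung at -0.23 to Pola1 at -0.66.

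In what follows, 5 values are given in the order of silenced replicates 1, 2, 3, 4 and 7 and a pair in the order of control replicates 5 and 6. They are intensities on the linear scale as deposited. Differences are on the log2(intensity + 16) scale and every adjusted p is limma's over all 22626 probe sets.

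None of the 4 genes of origin recognition and licensing passed the test. Cdt1, the factor that brings the MCM ring to origins, read 841, 722, 971, 962 and 971 against 676 and 800. Its values lay above both controls on 4 of 5 silenced arrays and overlapped them on silenced replicate 2 (log2 difference 0.27, SE 0.13, adjusted p = 0.194). Gmnn, which encodes geminin, the inhibitor of Cdt1, went the other way with 621, 579, 713, 714 and 739 against 745 and 831, all below the controls but not past the test (-0.23, SE 0.11, adjusted p = 0.184). Orc1, the largest subunit gene of the origin recognition complex, was dim at 201, 176, 200, 197 and 195 against 207 and 229 (-0.16, SE 0.067, adjusted p = 0.140). All silenced values of Orc1 were below both controls, with silenced replicate 2 apart from the rest. Cdc6, the loading ATPase, overlapped the controls (0.05, adjusted p = 0.750).

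The 6 subunits of the MCM helicase did not pass the test either, and the groups overlapped at the probe set chosen for each. Their differences ran from -0.24 (Mcm7) to -0.002 (Mcm3). Mcm7 read 1697, 1284, 1724, 1846 and 1830 against 1844 and 2102 (SE 0.13, adjusted p = 0.254), so its largest departure was on silenced replicate 2. At its other 3 probe sets all silenced values lay below both controls (-0.28, -0.20 and -0.19), none past the test (adjusted p = 0.139, 0.229 and 0.203). Mcm3 had the values 588, 469, 516, 580 and 580 against 533 and 558. Mcm6, whose promoter held 3 E2F words, read 1543, 1313, 1577, 1793 and 1718 against 1661 and 1653 (-0.07, SE 0.11, adjusted p = 0.706). In each of the 6 subunits silenced replicate 2 was the lowest of the silenced arrays.

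Of the 3 genes measured that turn the loaded ring into an active helicase, 2 fell and 1 did not pass. Mcm10, a scaffold of helicase activation, fell from 256 and 271 to 209, 190, 211, 218 and 220 (-0.31, SE 0.068, adjusted p = 0.0144). The highest silenced value stayed below the lower control. Gins1, a subunit of the GINS complex that rides with the helicase, fell from 344 and 369 to 277, 229, 282, 282 and 301 (-0.37, SE 0.097, adjusted p = 0.0325). Cdc45, the third component of the active helicase, read 200, 178, 199, 207 and 203 against 215 and 235, with no overlap but no call (-0.18, SE 0.069, adjusted p = 0.119). A second, dimmer Mcm10 probe set (mean 102) differed by 0.01, so the call rests on 1 of its 2 probe sets.

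Among 8 polymerase and primase genes, 3 fell and 5 did not pass. Pola1, the catalytic subunit gene of polymerase alpha, showed the largest decrease of all members, with 117, 151, 159, 160 and 160 against 241 and 246 (-0.66, SE 0.11, 1.58-fold lower, adjusted p = 0.00310). Silenced replicate 1 was lowest and the other silenced values were close together. Its partner Prim1, the catalytic subunit of primase, fell from 719 and 756 to 526, 479, 590, 608 and 598 (-0.39, SE 0.10, adjusted p = 0.0287), and a second Prim1 probe set fell by 0.37 (adjusted p = 0.0450). The other 2 subunits of the same 4-subunit complex did not pass: Pola2 read 242, 220, 242, 256 and 244 against 253 and 284 (-0.15, adjusted p = 0.212) and Prim2 302, 263, 279, 276 and 283 against 285 and 279 (-0.01, adjusted p = 0.961). The genes of both catalytic subunits were called and those of the regulatory subunits were not, but the difference between them was not tested. Pole2, an accessory subunit gene of polymerase epsilon, fell from 397 and 416 to 341, 293, 347, 346 and 344 (-0.27, SE 0.080, adjusted p = 0.0478), close to the threshold. Pole, the catalytic subunit gene, differed by -0.03 with overlapping groups. Pold1 and Pold2, of polymerase delta, read lower on all silenced arrays than in the controls without passing (-0.20 and -0.14, adjusted p = 0.138 and 0.285).

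The 8 genes of the clamp, its loader, the single-strand binding complex and flap processing included 2 that fell. Fen1, the endonuclease that trims flaps from Okazaki fragments, fell from 1152 and 1172 to 867, 706, 783, 863 and 817 (-0.52, SE 0.088, 1.43-fold lower, adjusted p = 0.00418). A second Fen1 probe set fell by a similar amount (-0.55, adjusted p = 0.00575). Rfc5, a subunit of the clamp loader, fell from 761 and 807 to 659, 518, 552, 578 and 592 (-0.43, SE 0.093, adjusted p = 0.0139). The loader genes Rfc3 and Rfc4 did not pass (-0.13 and -0.10, adjusted p = 0.352 and 0.365). Lig1, the ligase that seals Okazaki fragments after Fen1 has acted, missed the threshold narrowly with 648, 512, 521, 583 and 587 against 673 and 792 (-0.35, SE 0.11, adjusted p = 0.0533). Pcna, the clamp itself, was not lower: it read 4145, 3979, 4719, 4936 and 4935 against 3866 and 4257, above both controls on silenced replicates 3, 4 and 7 only (0.16, SE 0.091, adjusted p = 0.281). Rpa1 differed by -0.01 and Rpa2 by -0.26, neither past the test (adjusted p = 0.912 and 0.121).

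None of the 5 genes of nucleotide supply passed. Tk1, the thymidine kinase of dividing cells, came nearest with 773, 591, 826, 817 and 803 against 936 and 1012 (-0.36, SE 0.13, adjusted p = 0.0900). All its silenced values were below the controls, and silenced replicate 2 was far below the other silenced arrays. Rrm2, the S-phase subunit of ribonucleotide reductase, overlapped, with 2394, 1997, 3026, 2935 and 2962 against 2466 and 2997 (-0.05, SE 0.16, adjusted p = 0.868). Rrm1, Tyms and Dut differed by -0.17, -0.08 and -0.03.

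The drivers of S phase entry were likewise not called. E2f1, itself an activator of many of these genes, read 416, 418, 413, 447 and 419 against 419 and 382 (0.08, SE 0.068, adjusted p = 0.487), and its second probe set had the opposite sign (-0.17, adjusted p = 0.175). Ccne1, the gene of cyclin E1, overlapped the controls (-0.04, adjusted p = 0.890). Ccne2, the gene of cyclin E2, read 148, 246, 430, 410 and 448 against 333 and 390 (-0.20, SE 0.37, adjusted p = 0.750), below both controls on silenced replicates 1 and 2 and above both on the other silenced arrays. Of the 2 chromatin genes, Uhrf1, which recognises hemimethylated DNA behind the fork, read 375, 308, 342, 389 and 382 against 399 and 472, all below the controls but not past the test (-0.27, SE 0.10, adjusted p = 0.121). Hells, a chromatin remodeller needed for DNA methylation, had the same array pattern as Ccne2, with 180, 357, 492, 525 and 519 against 378 and 484 (-0.14, SE 0.36, adjusted p = 0.829).

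**Figure D2:**
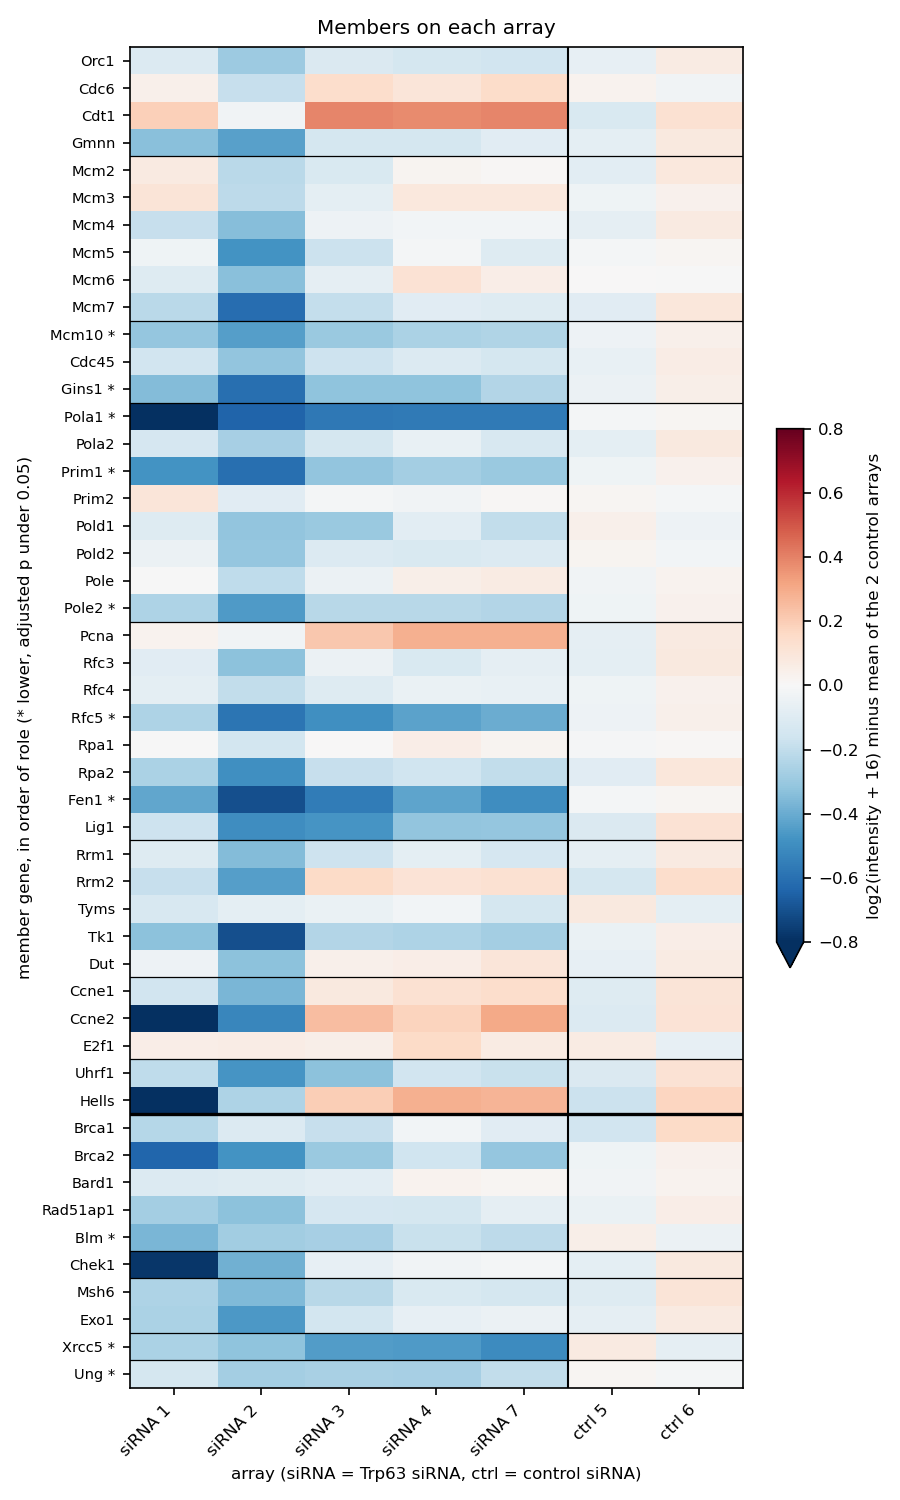
Each row is a member gene in order of role (thin lines part the roles, the thick line parts replication above from repair below) and each column an array; colour shows the log2(intensity + 16) value minus the mean of the 2 control arrays, and values beyond -0.8 share the darkest blue. Members called lower carry an asterisk, silenced replicate 2 is the bluest column for most replication genes, and Hells, Ccne2, Chek1 and Pola1 are darkest on silenced replicate 1.

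Among the 10 repair genes measured, 3 fell and 7 did not pass the test, with all 10 differences negative (7887 of all 12393 genes were negative). Xrcc5, which encodes the Ku80 subunit that holds broken ends for end joining, fell from 569 and 512 to 450, 428, 392, 391 and 377 (-0.40, SE 0.086, 1.32-fold lower, adjusted p = 0.0143). Unlike most members, its lowest value was on silenced replicate 7 and its highest silenced value on replicate 1. Blm, the helicase mutated in Bloom syndrome, fell from 232 and 217 to 171, 182, 184, 197 and 192 (-0.26, SE 0.063, adjusted p = 0.0228). Ung, the uracil glycosylase that starts base excision repair, fell from 278 and 271 to 247, 225, 227, 225 and 237 (-0.23, SE 0.060, adjusted p = 0.0320). Each of the 3 had all silenced values below both controls, and none of them passed without control replicate 5 or without control replicate 6 (adjusted p between 0.0526 and 0.178).

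The genes of homologous recombination were otherwise uncalled. Brca2, which loads the recombinase onto resected DNA, read 205, 231, 264, 291 and 261 against 319 and 335, with no overlap (-0.37, SE 0.12, adjusted p = 0.0580). Rad51ap1, a partner of that recombinase, differed by -0.19 at its probe set of highest mean (adjusted p = 0.143), while another of its 4 probe sets passed (-0.19, adjusted p = 0.0492). Brca1 overlapped the controls (-0.13, adjusted p = 0.374), and so did its partner Bard1, which was dim (82.2 to 91.9 on all arrays). Chek1, the checkpoint kinase that stabilises stalled forks, read 128, 172, 219, 225 and 227 against 217 and 244 (-0.26, SE 0.19, adjusted p = 0.401), so that silenced replicates 3, 4 and 7 overlapped the controls and replicates 1 and 2 did not. The mismatch repair genes Msh6 (546, 507, 556, 597 and 591 against 606 and 703) and Exo1 differed by -0.22 and -0.20 (adjusted p = 0.133 and 0.261).

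Replication and repair genes were set side by side array by array, as the mean log2 difference of each class from the mean of the controls. The 39 replication genes averaged -0.20, -0.35, -0.12, -0.06 and -0.07 on the silenced arrays and -0.05 and 0.05 on the controls. The 10 repair genes averaged -0.33, -0.31, -0.21, -0.14 and -0.16, and -0.04 and 0.04. Repair genes were thus lower than replication genes on silenced replicates 1, 3, 4 and 7, by 0.08 to 0.12, and higher by 0.04 on silenced replicate 2. Medians of the log2 differences were -0.15 for replication and -0.22 for repair, with 7 of 39 and 3 of 10 genes called. The gap took both signs among the silenced arrays, while the class means themselves varied with an SD of 0.12 for replication and 0.086 for repair (n = 5). Whether the classes differ was not tested.

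Counts of which silenced array was lowest are given for each class, without a test between them. Silenced replicate 2 was the lowest silenced array for 34 of 39 replication genes and for 4 of 10 repair genes, and replicate 1 for 3 and for 5. Over all members replicate 2 was lowest of the silenced arrays in 38 of 49, against 25.3% of all genes, and the controls were apart as well, with replicate 6 above replicate 5 in 39 of 49 members (median gap 0.10 on the log2 scale, against -0.02 over all genes). Mitotic genes, a neighbouring group of the cell cycle, averaged -0.61, -0.60, -0.35, -0.28 and -0.27 on the silenced arrays, and replicate 6 exceeded replicate 5 in 27 of 28 of them.

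**Figure D3:**
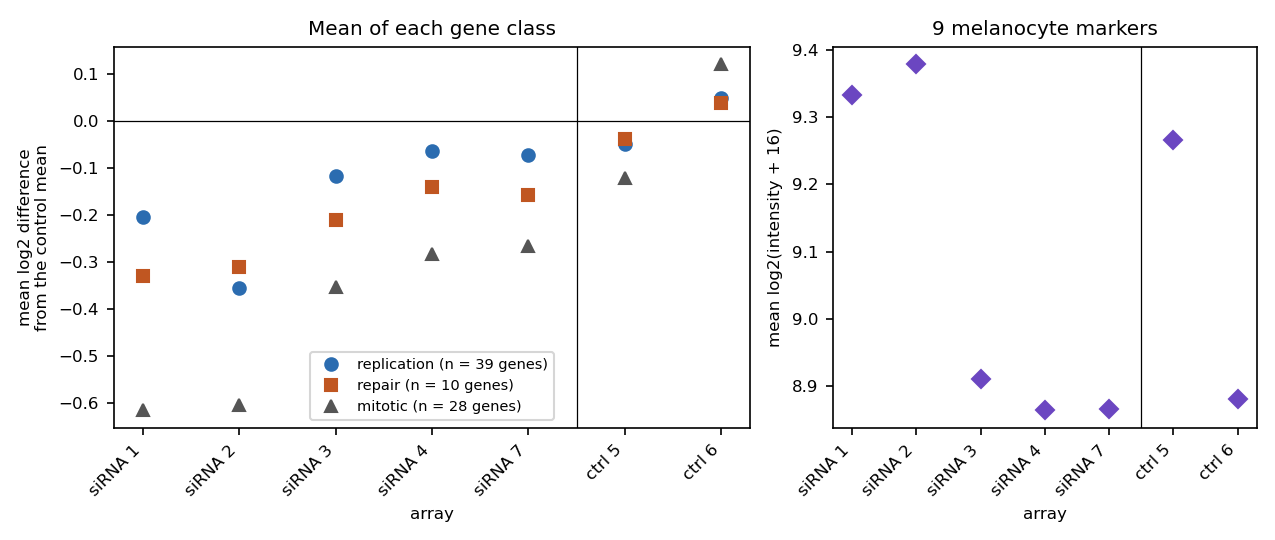
Left, the mean log2 difference from the control mean (y axis) of 39 replication, 10 repair and 28 mitotic genes on each array; right, the mean log2(intensity + 16) of 9 melanocyte markers on the same arrays. Silenced replicates 1 and 2 and control replicate 5, which have high melanocyte levels, have lower class means than the other arrays of their own group.

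Within each group, the arrays with lower replication values were those with more melanocyte RNA, whose part in the result was not tested. Silenced replicates 1 and 2 and control replicate 5 had mean melanocyte log2 levels of 9.33, 9.38 and 9.27, and the other 4 arrays 8.86 to 8.91. With this division as a block, 20 members were called lower and 2 higher, against 13.6% and 11.7% of all genes. The 2 higher members were Cdt1 (0.24, adjusted p = 0.0348) and Pcna (0.13, adjusted p = 0.0376), and all 10 members called without the block were among the 20. The additional ones were Tk1, Lig1, Brca2, Gmnn, Rpa2, Rad51ap1, Msh6, Cdc45, Uhrf1 and Exo1. Within the arrays of low melanocyte level (3 silenced and 1 control) 22 members were lower and 2 higher (18.0% and 14.1% of all genes), and within those of high level (2 silenced and 1 control) 6 were lower and none higher (4.33% and 4.1%). Each subset has 1 control array, taken to have the spread of the silenced ones. The median member difference was -0.16 within the first and -0.22 within the second. Most members lower within the second were not among the 10 called without the block. They included Ccne2 and Hells, at -0.75 and -0.54 there and 0.13 and 0.08 within the first. Pola1 and Fen1, which were among the 10, differed by -0.79 and -0.55 within the second. With the division by spiked-in RNA as a block in place of the melanocyte level, 2 members, Pola1 and Fen1, were called lower, and none higher, against 3.57% and 5.45% of all genes, and the median was -0.13. The 10 members called without it had log2 differences of -0.77 (Pola1) to -0.20 (Ung) under this block. Mcm10 was at -0.28, Prim1 at -0.37 and Xrcc5 at -0.35. No control array had a high spike level, so these differences compare only silenced replicates 1 and 4 with the controls. The part of the spike level was not tested either.

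A few members stood well below the other silenced arrays on 1 array. For Hells, Ccne2 and Chek1 the departure was larger than the group difference, and for Pola1 it was smaller. Hells on silenced replicate 1 was at 50.5% of the next lowest silenced array, Ccne2 at 60.4%, Chek1 at 74.0% and Pola1 at 77.6%. Those 4 were the only members under 80% on that array, 8.16% of the 49, and 4.83% of all genes were under the same limit there. That share is 599 of the 12393 genes, so such a drop was not particular to the members. On silenced replicate 2, 2 members (4.08%) were under the limit, against 0.153% of all genes. A second Chek1 probe set gave the same order, with 100 on silenced replicate 1, 134 on replicate 2 and 161 to 165 on the other silenced arrays, against 156 and 157 in the controls. The other 2 Chek1 probe sets were dim (means of 88.3 and 95.4) and showed no such difference, and Hells, Ccne2 and Pola1 had 1 probe set each. Without silenced replicate 1, the differences of Hells and Ccne2 were 0.12 and 0.05, both above 0, while Pola1 kept its call at -0.59. Hells, Ccne2, Chek1 and Pola1, and the limit of 80%, were picked after the values were seen.

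**Figure D4:**
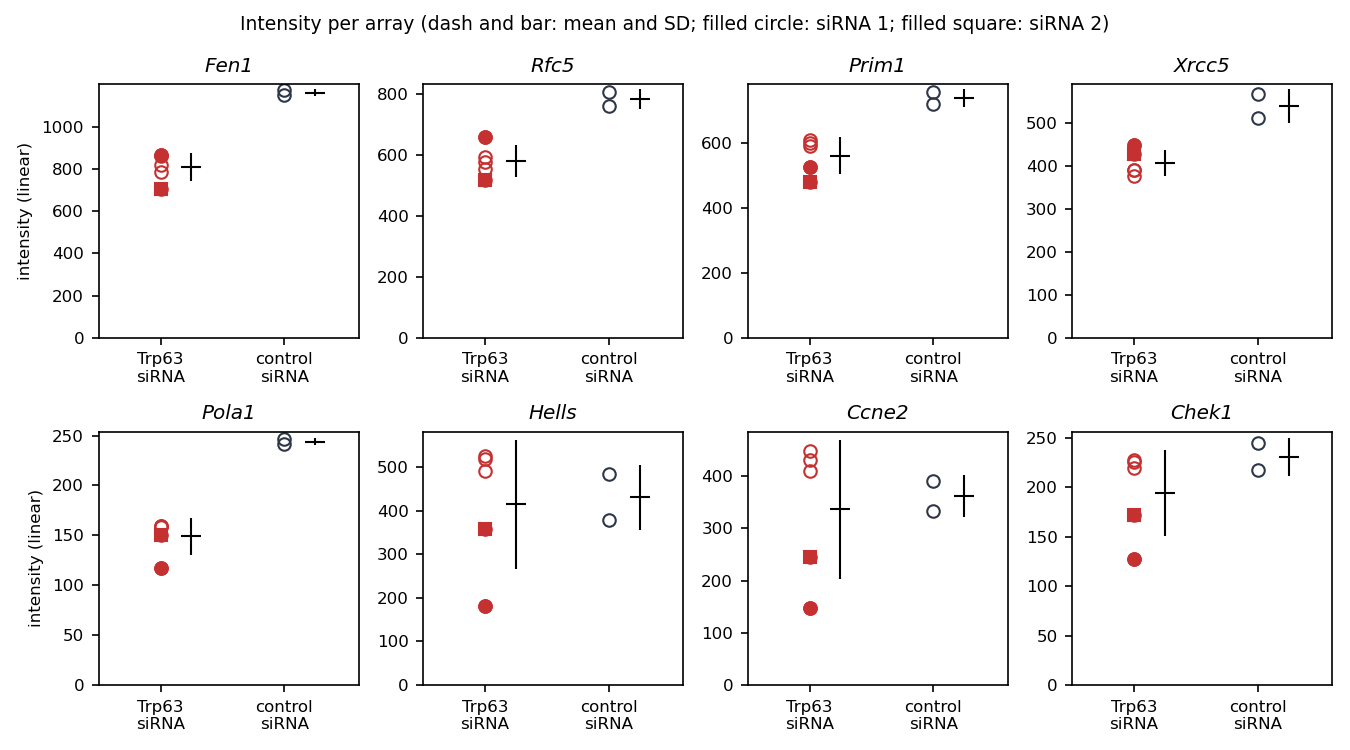
Intensity on each array (y axis, linear, from 0) for Fen1, Rfc5, Prim1 and Xrcc5, where all 5 silenced values lie below both controls, and for Pola1, Hells, Ccne2 and Chek1, where silenced replicate 1 (filled circle) is lowest; the filled square is silenced replicate 2, and dashes with bars show mean and SD (n = 5 and n = 2). Hells runs from 180 to 525 among silenced arrays, more than the distance between the group means.

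Several members can be read more than once on the array. There were 40 further probe sets for 26 members, of which 34 had the sign of the first, 3 were called lower (those of Fen1, Prim1 and Rad51ap1) and none higher. The other 23 measured members had 1 probe set, so their values have no such check. The names of the chosen probe sets of Fen1 and Rrm2 end in _x_at and those of Mcm2, Mcm3, Mcm7, Rad51ap1 and Chek1 in _s_at, endings that Affymetrix gives to sets that can hybridise to more than 1 transcript, so signal from related sequences was not told apart there.

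By the adjusted p, genes of the same pathways outside the 51 were called lower at rates nearer to the 8.57% of all genes. Leaving out silenced replicate 1 raised calls across the array, from 1847 to 3176 of 22626 probe sets called lower. The counts given below for that setting share in this rise. Of 44 other replication genes measured, 5 fell (11.4%), none rose and 39 did not pass (median -0.13), and at an unadjusted p under 0.05 in limma 9 were lower and 3 higher. All silenced values lay below both controls for 14 of the 44 and above both for 2. Orc5, another subunit of the origin recognition complex, fell from 320 ± 3.81 (SD, n = 2) to 232 ± 14.8 (SD, n = 5; -0.44, adjusted p = 0.00318). Rpa3 (-0.39), the clamp loader gene Rfc2 (-0.34), the histone chaperone gene Nasp (-0.30) and the S-phase kinase gene Cdk2 (-0.22) also fell. Leaving out silenced replicate 3 gave 2 such decreases (1276 of the 22626 probe sets were then called lower) and silenced replicate 1 gave 8. Fewer also passed without either control replicate, where 1 control array remains and calls fell across the array.

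Of 56 other repair genes, 7 fell (12.5%), 1 rose and 48 did not pass (median -0.13). At an unadjusted p under 0.05 in limma 19 were lower and 2 higher. All silenced values lay below both controls for 24 of the 56 and above both for 2, beside 24.0% and 14.3% of all genes. Ercc5, the nuclease of nucleotide excision repair, fell from 558 ± 7.40 (SD, n = 2) to 371 ± 8.09 (SD, n = 5; -0.57, adjusted p = 0.000360). Polk, a translesion polymerase, fell by 0.59 on the log2 scale (adjusted p = 0.00397) and the checkpoint kinase gene Chek2 by 0.52 (adjusted p = 0.00234). Parp2 (-0.38), Fanci (-0.33), Xrcc6 (-0.24) and Eme1 (-0.22) were the other decreases. Xrcc6 encodes Ku70, the partner of the Ku80 protein of Xrcc5, so both subunits of the Ku dimer were called lower, by 0.24 and 0.40. Xpc, the damage sensor of nucleotide excision repair, rose from 182 ± 3.24 (SD, n = 2) to 226 ± 6.12 (SD, n = 5; 0.29, adjusted p = 0.00559). Decreases numbered 14 when silenced replicate 1 was left out and 4 when silenced replicate 3, 4 or 7 was. With replicate 3, 4 or 7 left out, 1234 to 1297 of the 22626 probe sets were called lower. Fewer also passed without control replicate 6, where 1 control array remains and calls fell across the array, and Xpc did not pass there.

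Mitotic genes had a larger median difference than the members. Of 28 measured, 8 fell (28.6%) and none rose. All 28 differences were below 0, as were 7887 of all 12393 genes, and the median was -0.40, beside -0.17 for the members. The spindle assembly factor gene Tpx2 fell from 583 ± 31.6 (SD, n = 2) to 427 ± 28.1 (SD, n = 5; -0.44, adjusted p = 0.00671). Decreases of 0.36 to 0.49 on the log2 scale were called for Ccnb2, the gene of cyclin B2, for the mitotic kinase genes Plk1 and Aurkb, for Bub1b and Cdc20 of the spindle checkpoint and its target complex, for the kinesin gene Kif23 and for Cenpa, the centromeric histone. At an unadjusted p under 0.05 in limma 24 were lower and none higher. Of all 22626 probe sets, 1847 were called lower on all arrays and 3176 without silenced replicate 1. The 8 calls became 20 without silenced replicate 1. They did not hold without control replicate 6, where 1 control array remains and calls fell across the array. Whether the list differs from the members was not tested.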

How the data were processed

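Total RNA extracted with Trizol was made into biotinylated cRNA and hybridised to Affymetrix arrays, per the labels' protocols. The deposited values are linear intensities, 1 per probe set and array. The authors' summarisation and normalisation steps were not given in the sources used here. Values were used as deposited, since array medians of the log2 values differed by under 0.05.

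Of 22690 probe sets, 64 controls were left out and 22626 tested. By the platform annotation, 20380 carry a single gene symbol and were used for genes, 691 carry several and 1555 carry none. Intensities became log2(intensity + 16), a scale that understates changes of dim genes. Groups were compared with limma 3.58.1 in R 4.3.3 (lmFit, then eBayes with trend), and p-values were adjusted by Benjamini and Hochberg's method across every probe set tested (threshold 0.05). No filter and no detection calls were used, and the number of arrays limits the precision. On simulated data for 22626 probe sets, 33 of 70 changes of 0.3, 55 of 70 of 0.5 and 59 of 60 of 1 were recovered, with 8 false calls. The simulated noise was independent between probe sets and held no shifts shared across genes, so these rates need not hold for the arrays themselves.

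Members and gene lists were chosen with earlier results of these data known. Every member past the threshold, and in each role the member with the smallest p, the largest difference and the highest mean, has its value given on every array. Other values of members are added for context. Of the other pathway genes, those past the threshold are named, up to 8 a list. Alternatives covered normalisation, pseudocount, filters, variance model, array weights, choice of probe set, leaving out each array, and blocks on melanocyte and hybridisation control levels. The block on spiked-in RNA and the subsets of arrays were chosen after seeing the data. Plots used matplotlib 3.10.9 (Python 3.11.15).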

Additional observations from a re-analysis of the deposited data

Results flagged for a closer look

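Among the 5 silenced arrays, 1 value stood apart from the rest of its group for 8 of the 52 quantities checked (49 members and 3 class means), by a gap of over 0.71 of the group's range. Chance gives such a gap in about 1 of 20 independent groups of normal values. The 52 quantities share the same 5 arrays, so their count cannot be set against that rate. In 6 of the 8 the array was silenced replicate 2, as the lowest: Orc1 at 176 (next 195), Mcm7 at 1284 (next 1697), Pole2 at 293 (next 341), Rfc3 at 261 (next 305), Rpa1 at 1609 (next 1784) and Tk1 at 591 (next 773). Pola1 was lowest on silenced replicate 1, at 117 (next 151). E2f1 was highest on silenced replicate 4, at 447 (next 419).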

How the results depend on the processing

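The labels give the groups no replicate number in common. No paired analysis was possible because replicates 1, 2, 3, 4 and 7 occur only with Trp63 siRNA and replicates 5 and 6 only with control siRNA. The median difference of all members (-0.23 to -0.12 with 1 array left out), of replication members (-0.21 to -0.09) and of repair members (-0.27 to -0.16) stayed below 0 under every alternative run, and Trp63 was lower and past the threshold in each (-1.76 to -0.88).

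Leaving out 1 array at a time gave 1 to 12 members lower, 1 to 8 other replication genes lower, 2 to 14 other repair genes lower, 0 to 1 other repair genes higher and 0 to 20 mitotic genes lower. Array weights gave 1 member higher (Cdt1), 11 other repair genes lower and 13 mitotic genes lower. Calls rose across the array too, to 2823 of 22626 probe sets lower and 2289 higher, from 1847 and 1771 without the weights. The melanocyte block gave 20 members lower and 2 higher, 11 other replication genes lower, 15 other repair genes lower and 2 higher, and 27 mitotic genes lower. The corresponding counts were 22, 2, 13, 15, 2 and 26 within the arrays of low melanocyte level. Within those of high level 6 members and 1 other replication gene were lower and 0 other repair genes higher. The block on spiked-in RNA gave 2 members, 1 other replication gene, 4 other repair genes and 1 mitotic gene lower. Its differences are those within the arrays of low spike level, because no control array had a high one. Within the arrays of low spike level, where 1 member (Pola1) was lower, the counts were 0 other replication genes, 1 other repair gene and 0 mitotic genes lower and 0 other repair genes higher, with 4, 4 and 17 lower and 2 higher at an unadjusted p under 0.05 in limma. Other repair genes higher numbered 2 with quantile normalization, median centring, the filter at the 50th percentile and no variance trend.

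None of the 10 called members changed sign. Of all members, 34 kept their sign under every alternative and 15 did not, none of them past the threshold with the other sign: Brca1, Ccne1, Ccne2, Cdc6, Dut, E2f1, Hells, Mcm2, Mcm3, Mcm6, Pole, Prim2, Rpa1, Rrm2 and Tyms. Up to 8 did so under 1 setting (array weights, and leaving out control replicate 6), and 7 under the block on spiked-in RNA. Examples were Rrm2 (0.06 with array weights, -0.19 to 0.09 with 1 array left out), Ccne2 (0.11 with array weights, -0.32 to 0.05 with 1 array left out, 0.13 within the low melanocyte arrays), Hells (0.15, -0.31 to 0.12 and 0.08 under the same settings) and E2f1 (-0.17 at the probe set of highest variance, -0.05 over the mean of its probe sets and -0.01 within the high melanocyte arrays). Apart from the array weights, subsets and probe set rules, whose construction changes the data used, the cause was not tested. Pole2 missed the threshold with median centring (adjusted p = 0.0536), and its adjusted p ran up to 0.235 over the alternatives on all or all but 1 of the arrays. Pola1 passed in all 20 of the alternatives that gave it a value on those arrays, and Fen1 in 20 of 21.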
